A study of Mus musculus with 5 samples.

Results

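The 10 genes described here are the Notch receptors *Notch1*, *Notch2*, *Notch3* and *Notch4*, the ligands *Jag1*, *Jag2* and *Dll1*, the nuclear factor *Rbpj* and the target genes *Hes1* and *Hey1*. They were taken by name from a table of 24346 rows, each name matched exactly 1 row, and the rule uses no measured value. Of the 10 genes, 7 reached a mean of 1 FPKM (fragments mapped per kilobase of transcript, scaled to the depth of the library) over the libraries, and *Notch4*, *Jag2* and *Dll1* did not.

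The samples were 5 bulk RNA-seq libraries of mouse mammary luminal cells, the epithelial cells that line the lumen of ducts and alveoli. The genotype label of replicates 1, 2 and 3 is wild type and that of replicates 4 and 5 is *Brca1* knockout, the strain label of all 5 is Mixed, and no treatment is given. By the study's methods, the cells came from a gate of live cells with high CD24 and low CD29, *Brca1* was deleted through floxed alleles and a Cre driven by the mammary promoter MMTV, and the background was C57BL/6 and 129/Sv. For cell preparation the methods name females some months old, virgin or in mid pregnancy. The study calls its luminal cells BRCA1-deficient, whereas the labels call 3 libraries wild type and their extraction text speaks of tumors. The labels were used here. Which stage and age belongs to which library, any Cre in the libraries labelled wild type, and whether libraries came from separate animals are not given in the sources used here, so the p-values below measure only the spread between these libraries.

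Notch receptors are single-pass membrane proteins that are activated by ligands on a neighbouring cell. Ligand binding exposes the receptor to an ADAM protease and then to gamma-secretase, and the freed intracellular domain enters the nucleus, where it joins RBPJ and a Mastermind coactivator to switch on genes such as those of the HES and HEY repressor families. In the mammary gland the pathway is known for its part in the choice and maintenance of the luminal lineage.

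*Brca1* did not separate the labels (1.30, 1.32 and 0.234 FPKM in replicates 1 to 3, and 1.20 and 1.34 FPKM in replicates 4 and 5), so each library is named below by its label. Values over the whole gene do not show whether its floxed part was deleted. The luminal keratins and adhesion genes (*Krt8*, *Krt18*, *Krt19*, *Epcam*, *Cdh1*, *Cd24a*) summed to between 6364 and 10367 FPKM, and 7 basal genes to between 7.65 and 129.8 FPKM. Replicate 3 stood apart. The 7 mature luminal genes (*Esr1*, *Pgr*, *Prlr*, *Foxa1*, *Cited1*, *Areg*, *Prom1*) were all highest there and summed to 637.5 FPKM, against 15.1 to 36.4 FPKM in the other 4 libraries. All 6 proliferation genes were lowest there (a sum of 3.01 FPKM against 36.6 to 89.0), as were 5 of 6 milk genes (19422 against 48280 to 65287 FPKM). Of the 11481 genes that averaged 1 FPKM or more, 51.9% were lowest and 18.5% highest in replicate 3. The *Hey1* level and the differences of the members between labels are therefore given with and without it. The table holds no read totals, and a rough estimate of depth from the steps between low values ran from about 6570000 fragments in replicate 1 to about 32420000 in replicate 3.

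The start regions of the receptors are shown first, because the receptors fell into 3 that were well expressed and 1 that was barely detected. The windows are the 250 bases before the RefSeq start site on GRCm38.p6, read 5′ to 3′ on the gene's own strand, with each CG dinucleotide in capitals. They lie at chr2:26503823-26504072 (minus strand, *Notch1*), chr3:98013288-98013537 (plus strand, *Notch2*), chr17:32166891-32167140 (minus strand, *Notch3*) and chr17:34564045-34564294 (plus strand, *Notch4*).
Notch1: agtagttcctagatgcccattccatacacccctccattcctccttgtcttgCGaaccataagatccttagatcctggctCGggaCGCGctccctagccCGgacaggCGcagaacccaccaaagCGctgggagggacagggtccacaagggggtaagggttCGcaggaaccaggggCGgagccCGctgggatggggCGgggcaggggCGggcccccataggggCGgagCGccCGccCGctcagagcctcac
Notch2: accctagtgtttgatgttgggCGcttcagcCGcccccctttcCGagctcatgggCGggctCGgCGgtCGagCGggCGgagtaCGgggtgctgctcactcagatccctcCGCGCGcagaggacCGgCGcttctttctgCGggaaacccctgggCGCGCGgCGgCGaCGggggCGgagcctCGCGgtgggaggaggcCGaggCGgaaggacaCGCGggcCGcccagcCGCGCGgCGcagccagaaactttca
Notch3: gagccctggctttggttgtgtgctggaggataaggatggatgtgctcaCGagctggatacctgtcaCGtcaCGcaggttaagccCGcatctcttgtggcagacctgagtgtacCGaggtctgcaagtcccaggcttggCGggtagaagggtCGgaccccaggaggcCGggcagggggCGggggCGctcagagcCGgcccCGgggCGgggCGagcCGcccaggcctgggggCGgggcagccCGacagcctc
Notch4: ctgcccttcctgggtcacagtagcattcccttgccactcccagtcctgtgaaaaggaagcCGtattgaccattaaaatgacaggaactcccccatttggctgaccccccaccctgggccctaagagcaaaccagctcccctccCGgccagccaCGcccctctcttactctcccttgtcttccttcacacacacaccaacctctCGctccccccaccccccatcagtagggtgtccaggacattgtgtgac

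CG dinucleotides numbered 16 in the *Notch1* window, 34 in *Notch2*, 17 in *Notch3* and 4 in *Notch4*. Over the mouse windows of genes that averaged 1 FPKM or more, the median was 16 (quartiles 9 and 23, 10990 windows), and over those of the other genes in the table it was 4 (quartiles 1 and 10, 9764 windows). The 3 expressed receptors were thus at or above the median of expressed genes, and *Notch4* was at the median of the rest. Expression and this base composition were set side by side as a description. Among the ligands, the *Jag2* window held 54 CG dinucleotides, more than 99.98% of all 32851 windows, although *Jag2* had a mean below 1 FPKM. *Dll1*, also below a mean of 1 FPKM, held 21 and 13 in its windows, and *Jag1*, above it, held 20.

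*Notch1* (ENSMUSG00000026923, GENCODE M21 on GRCm38, which is mm10, chromosome 2, 26457903 to 26516663, minus strand), whose product carries much of the Notch signal in many tissues, was at 21.1, 11.6 and 17.0 FPKM in replicates 1 to 3 and at 20.4 and 25.8 FPKM in replicates 4 and 5. The lowest library was replicate 2 and the highest replicate 5, and the labels overlapped. Replicate 2, lowest for *Notch3* as well, had the highest sums of fibroblast (109.1 FPKM) and immune genes (52.7 FPKM), whose part in these levels was not tested. The mean was 19.2 ± 5.29 FPKM (SD, n = 5), above 86.9% of all 24319 usable genes.

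*Notch3* (ENSMUSG00000038146, chromosome 17, 32120820 to 32166852, minus strand), a receptor best known from vascular smooth muscle and also present in luminal cells, was at 13.6, 9.69 and 19.1 FPKM in replicates 1 to 3 and at 17.7 and 17.3 FPKM in replicates 4 and 5. Both libraries labelled knockout lay between replicates 1 and 3, so the labels overlapped. The mean was 15.5 ± 3.82 FPKM (SD, n = 5). *Notch2* (ENSMUSG00000027878, chromosome 3, 98013527 to 98150361, plus strand) had 9.18, 10.5 and 15.0 FPKM in replicates 1 to 3 and 10.5 and 12.9 FPKM in replicates 4 and 5, a mean of 11.6 ± 2.32 FPKM. Replicate 3 was the highest library for both genes.

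*Notch4* (ENSMUSG00000015468, chromosome 17, 34564268 to 34588503, plus strand), a receptor known mainly from endothelium, was at 0.234, 0.249 and 0.111 FPKM in replicates 1 to 3 and at 0.162 and 0.151 FPKM in replicates 4 and 5. At the estimated depths these values stand for only about 6.94 to 22.9 fragments per library, numbers that carry a large counting error. The 6 endothelial markers (*Pecam1*, *Cdh5*, *Kdr*, *Tek*, *Emcn*, *Cldn5*) summed to 0.700, 7.48 and 7.95 FPKM in replicates 1 to 3 and to 0.519 and 0.174 FPKM in replicates 4 and 5. Of the 6 markers, 2 (*Kdr*, *Cldn5*) were at 0 in replicates 1 and 4. The part of endothelial RNA in the *Notch4* level was not tested.

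**Figure D1:**
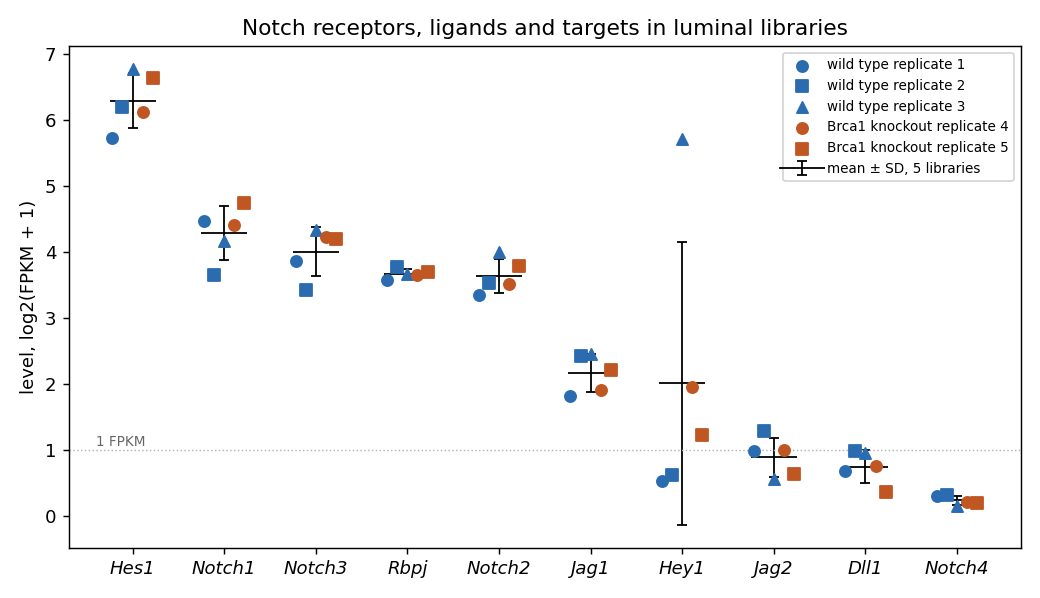
Level of each of the 10 genes, as log2(FPKM + 1) on the vertical axis, with 1 point per library (wild type label replicates 1 to 3, *Brca1* knockout label replicates 4 and 5), a bar for the mean of all 5 libraries, its SD and a dotted line at 1 FPKM. *Hes1* is highest in every library, the points of *Rbpj* lie close together, and *Hey1* has 1 point (replicate 3, 51.2 FPKM) far above the other 4 (0.449 to 2.89 FPKM).

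Within each library the receptors can be compared as shares of their summed FPKM, a measure that does not depend on scaling between libraries. *Notch1* made up 47.8%, 36.1% and 33.1% of the receptor sum in replicates 1 to 3 and 41.8% and 46.0% in replicates 4 and 5. *Notch3* made up 33.1% ± 3.41 (SD, n = 5), *Notch2* 25.5% ± 5.34 and *Notch4* 0.425% ± 0.230. *Notch1* was the largest share in 4 of 5 libraries, and in replicate 3 *Notch3* exceeded it with 37.3%. *Notch1* exceeded *Notch2* in every library, by the least in replicate 2 (36.1% against 32.9%).

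The 3 ligands were lower than *Notch1*, *Notch2* and *Notch3* and higher than *Notch4* in mean FPKM. *Jag1* (ENSMUSG00000027276, chromosome 2, 137081456 to 137116644, minus strand), the Jagged ligand, was at 2.52, 4.38 and 4.47 FPKM in replicates 1 to 3 and at 2.78 and 3.66 FPKM in replicates 4 and 5, a mean of 3.56 ± 0.893 FPKM (SD, n = 5). It was highest in replicates 2 and 3 and lowest in replicates 1 and 4, and the labels overlapped. The fibroblast list moved in part alongside, with sums of 109.1 and 86.0 FPKM in replicates 2 and 3, and of 2.997, 3.86 and 12.6 FPKM in replicates 1, 4 and 5. The 6 immune genes did so too, with 52.7 and 17.8 FPKM in replicates 2 and 3 and 3.52 to 3.82 FPKM in the others. So did the 6 endothelial markers, with 7.48 and 7.95 FPKM in replicates 2 and 3 and 0.174 to 0.700 FPKM in the others. The luminal progenitor genes (*Kit*, *Elf5*, *Aldh1a3*, *Cd14*, *Itga2*) summed to 647.1 and 551.8 FPKM in replicates 2 and 3. In replicates 1, 4 and 5 they summed to 527.7, 467.1 and 420.0 FPKM. Of these genes, *Cd14* and *Aldh1a3* were highest in replicates 2 and 3, whereas *Kit*, *Elf5* and *Itga2* were not. The part of these lists in the *Jag1* level was not tested.

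*Jag2* (ENSMUSG00000002799, chromosome 12, 112907819 to 112929776, minus strand), the other Jagged ligand, was at 0.973, 1.44 and 0.479 FPKM in replicates 1 to 3 and at 1.00 and 0.560 FPKM in replicates 4 and 5. *Dll1* (ENSMUSG00000014773, chromosome 17, 15367354 to 15376872, minus strand), a Delta-like ligand, was at 0.604, 0.984 and 0.943 FPKM in replicates 1 to 3 and at 0.691 and 0.286 FPKM in replicates 4 and 5. *Jag2* was lowest in replicate 3 and *Dll1* in replicate 5, and neither passed the filter of a mean of 1 FPKM, so neither was tested. Approximate fragment numbers were 31.4 to 96.2 for *Jag2* and 13.4 to 103.3 for *Dll1*.

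Of the ligand sum, *Jag1* made up 69.0% ± 8.97 (SD, n = 5), *Jag2* 17.6% ± 6.90 and *Dll1* 13.4% ± 3.99. *Jag1* was the largest share in each library, from 61.5% in replicate 1 to 81.2% in replicate 5. *Dll1* was at 14.5% to 16.0% in replicates 1 to 4 and at 6.35% in replicate 5. The summed receptors exceeded the summed ligands in every library, by 10.8, 4.71 and 8.70 times in replicates 1 to 3 and by 10.9 and 12.5 times in replicates 4 and 5. The lowest ratio, in replicate 2, went with the lowest receptor sum (32.1 FPKM) and the highest ligand sum (6.80 FPKM).

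**Figure D2:**
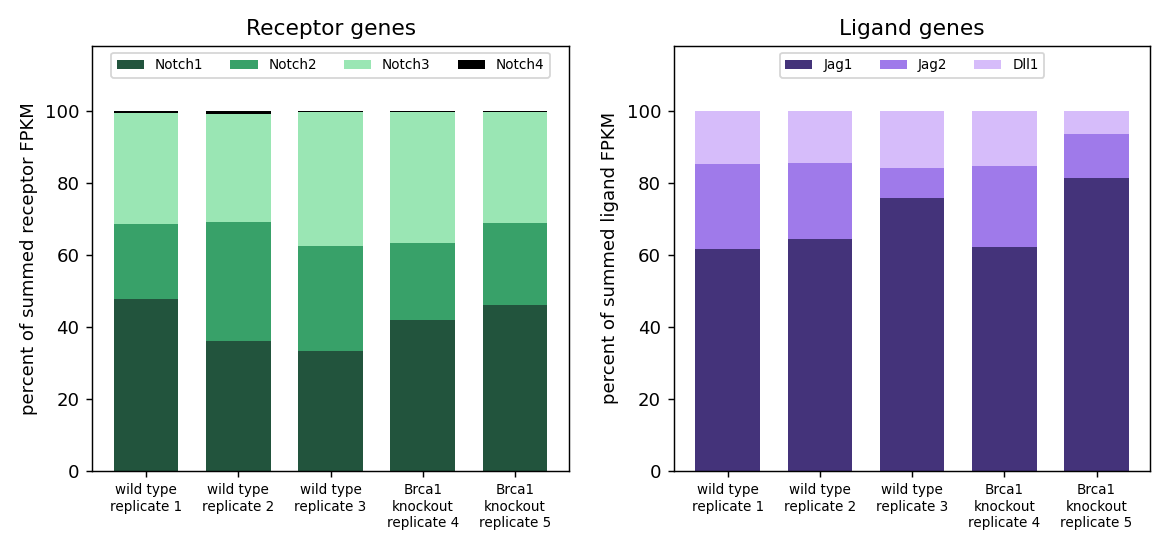
Composition of the receptors (left, percent of the summed FPKM of *Notch1* to *Notch4*) and of the ligands (right, percent of the summed FPKM of *Jag1*, *Jag2* and *Dll1*) in each library, stacked to 100 percent. *Notch1* takes 33.1% to 47.8% of the receptor sum, *Notch4* under 1% in each library, and *Jag1* 61.5% to 81.2% of the ligand sum.

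*Rbpj* (ENSMUSG00000039191, chromosome 5, 53466152 to 53657362, plus strand), the DNA-binding partner of the cleaved receptors, had the smallest coefficient of variation of FPKM among the 10 genes, with 10.9, 12.7 and 11.6 FPKM in replicates 1 to 3 and 11.6 and 12.0 FPKM in replicates 4 and 5. Both libraries labelled knockout lay inside the range of the other 3. That coefficient was 5.73%, and 1.22% of the 11481 tested genes had a smaller SD of log2(FPKM + 1) than *Rbpj* (0.08).

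The promoter windows were searched on both strands for TGGGAA, the core of the sequence that RBPJ recognises. Windows were at hand for 8 of the 10 genes, all but *Hes1* and *Hey1*, and among these the letters occurred only in the windows of *Rbpj* itself, 2 times in the first window (chr5:53590096-53590345, plus strand), shown here with the matches in capitals (the match on the opposite strand reads TTCCCA). Of all 32851 windows, 21.6% hold the letters at least 1 time, so a match is a description and not a binding site.
Rbpj: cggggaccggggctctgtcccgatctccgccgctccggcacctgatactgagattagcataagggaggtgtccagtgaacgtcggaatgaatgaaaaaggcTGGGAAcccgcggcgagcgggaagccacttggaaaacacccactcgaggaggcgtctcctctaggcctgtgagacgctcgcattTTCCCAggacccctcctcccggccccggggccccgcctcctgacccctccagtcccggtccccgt

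Of the targets, *Hes1* (ENSMUSG00000022528, chromosome 16, 30064384 to 30067796, plus strand), which encodes a repressor of the hairy and enhancer of split family, was the most abundant of the 10 genes. It was at 52.0, 72.6 and 108.6 FPKM in replicates 1 to 3 and at 68.9 and 98.3 FPKM in replicates 4 and 5. The mean was 80.1 ± 23.0 FPKM (SD, n = 5), above 96.8% of all genes. Replicates 3 and 5 were the highest and replicate 1 the lowest, with the labels interleaved. The 7 genes of the dissociation stress list summed to 3895, 2118 and 3527 FPKM in replicates 1 to 3 and to 3195 and 3041 FPKM in replicates 4 and 5. Of these genes, 4 were highest in replicate 1 and 2, *Fos* and *Jun*, in replicate 3. The part of this list in the *Hes1* level was not tested.

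*Hey1* (ENSMUSG00000040289, chromosome 3, 8663359 to 8667256, minus strand), a related repressor of the HEY family, was at 0.449, 0.538 and 51.2 FPKM in replicates 1 to 3 and at 2.89 and 1.36 FPKM in replicates 4 and 5. Replicate 3 was 17.7 times the highest of the other 4 libraries. On the log2(FPKM + 1) scale it lay 4.62 above their mean, and the gap to the next library was 3.75. A gap at least as large was found in 125 of the 11481 tested genes, of which 76 had it in replicate 3. Without replicate 3 the *Hey1* level was 1.31 ± 1.13 FPKM (SD, n = 4), and replicates 4 and 5 were then both above replicates 1 and 2. Those low values stand for approximately 6.56 and 16.3 fragments in replicates 1 and 2 and for 43.0 and 68.0 in replicates 4 and 5. With all libraries, replicates 4 and 5 both lay above the others in 17.5% of tested genes. That share was not computed without replicate 3, so the order of *Hey1* there is a description only.

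The mature luminal genes, those of hormone-sensing cells, were high in the same library as *Hey1*. Each of the 7 was highest in replicate 3, and their sum was 36.4, 21.8 and 637.5 FPKM in replicates 1 to 3 and 15.1 and 19.6 FPKM in replicates 4 and 5. *Pgr*, the progesterone receptor, was at 27.1 FPKM in replicate 3 and at 0.111 to 0.714 FPKM elsewhere, and *Prom1* at 56.7 FPKM against 0 to 0.938 FPKM. Among the other 4 libraries the mature luminal sum was higher in replicates 1 and 2 than in replicates 4 and 5, the opposite order to *Hey1*. *Pgr*, *Cited1*, *Areg* and *Prom1* were each higher in both replicates 1 and 2 than in replicates 4 and 5. *Prlr*, *Esr1* and *Foxa1* were not, and *Prlr* was highest of the 4 libraries in replicate 5 (10.3 FPKM). The part of the mature luminal genes in the *Hey1* level was not tested. In bulk samples, fewer cells of a type and less RNA per cell cannot be told apart.

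**Figure D3:**
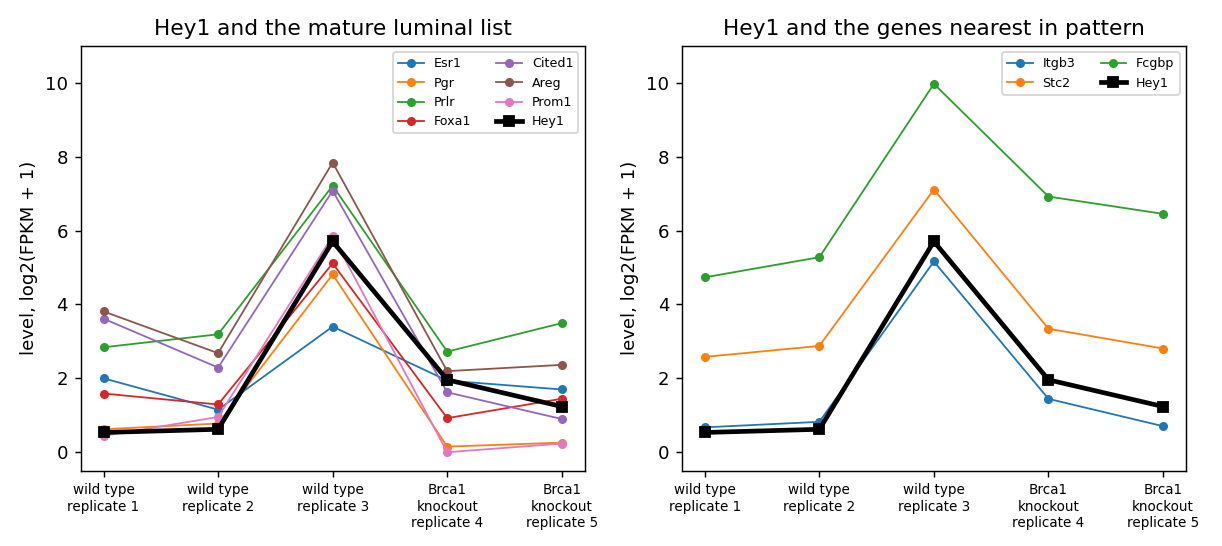
Level of *Hey1* (black) as log2(FPKM + 1) in each library beside the 7 mature luminal genes (left) and the 3 genes nearest to it in pattern (right), where lines only join the values of 1 gene. All of these genes peak in replicate 3, the library labelled wild type with *Hey1* at 51.2 FPKM.

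*Hes1* and *Hey1* therefore had different patterns. The ratio of *Hes1* to *Hey1* FPKM was 115.8, 134.9 and 2.12 in replicates 1 to 3 and 23.8 and 72.4 in replicates 4 and 5. Replicate 3 was the highest library for both genes, by 1.10 times over the next library for *Hes1* and 17.7 times for *Hey1*.

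By mean log2(FPKM + 1), a scale on which genes can be compared because FPKM is per transcript length, the order of levels was *Hes1*, *Notch1*, *Notch3*, *Rbpj*, *Notch2*, *Jag1*, *Hey1*, *Jag2*, *Dll1* and *Notch4*. The step from *Hes1* to *Notch1* (a difference of 2.004 ± 0.57, SD over 5 libraries), that from *Notch2* to *Jag1* (1.47 ± 0.21) and that from *Dll1* to *Notch4* (0.51 ± 0.25) held in all 5 libraries. *Notch1* and *Notch3* (0.28 ± 0.31), *Notch3* and *Rbpj* (0.34 ± 0.41), *Rbpj* and *Notch2* (0.03 ± 0.25) and *Jag2* and *Dll1* (0.15 ± 0.30) differed by less than the spread of the difference. *Hey1* lay between *Jag1* (0.15 ± 2.02) and *Jag2* (1.12 ± 2.35) with all libraries and without replicate 3, and its mean was 2.01 with that library and 1.09 without it. Neither step exceeded the spread of its difference with all libraries.

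Replicate 3 was the highest library for 5 of the 7 members that averaged 1 FPKM or more and the lowest for none, beside 18.5% and 51.9% of all tested genes. The median difference of replicate 3 from the mean of the other libraries was 0.40 on the log2(FPKM + 1) scale over these 7 genes and -0.27 over all tested genes. *Notch1* and *Rbpj* were the exceptions, with replicate 3 neither highest nor lowest. The low members *Notch4* and *Jag2* were lowest in replicate 3.

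The comparison of the labels asked whether the luminal libraries labelled *Brca1* knockout differed from those labelled wild type. No member passed the test. Of 11481 genes, limma called 0 (0%) at an adjusted p under 0.05, the lowest adjusted p was 0.92, and 372 genes (3.24%) had an unadjusted p under 0.05. Of the 7 members tested, 0 were called and 0 had an unadjusted p under 0.05. Labels did not overlap in 23.3% of tested genes (17.5% with the knockout label above and 5.77% with it below), and this was so for 0 of the 7 members.

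The difference in log2(FPKM + 1), knockout label minus wild type label, was 0.49 for *Notch1* (standard error 0.29, 95% interval -0.25 to 1.22, limma adjusted p = 0.92) and 0.34 for *Notch3* (standard error 0.30, interval -0.41 to 1.09). The other receptor, *Notch2*, was at 0.03 (interval -0.62 to 0.68). *Rbpj* had the narrowest interval, -0.42 to 0.43 around a difference of 0.0035, and *Hey1* the widest, -4.89 to 3.51 around -0.69. *Jag1* was at -0.16 (interval -0.88 to 0.55) and *Hes1* at 0.15 (interval -0.76 to 1.05). These intervals do not show that the labels had equal levels.

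**Figure D4:**
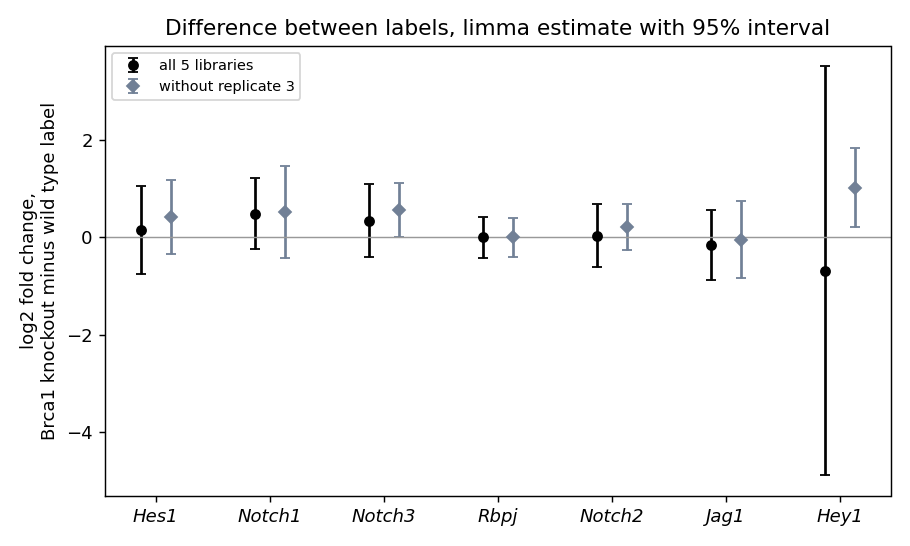
Difference in log2(FPKM + 1), *Brca1* knockout label minus wild type label, for the 7 tested genes with its 95% interval, with all 5 libraries and without replicate 3. Every interval with all libraries crosses 0, and the *Hey1* difference is -0.69 with replicate 3 and 1.02 without it.

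The median of the 7 differences was 0.03, and that of all tested genes 0.11, with 5 of 7 members and 65.5% of all tested genes having the higher mean under the knockout label. Under median-of-ratios scaling, which moved the median of all genes to 0.01, this held for 3 of 7 members, because *Notch2* (-0.08) and *Rbpj* (-0.10) changed sign. Leaving out replicate 3 gave a median of 0.03 over all tested genes and of 0.42 over the 7 members. Without replicate 3, *Hey1* turned to 1.02 (standard error 0.29, limma adjusted p = 0.67, range over its alternatives 0.42 to 1.0) and *Notch3* moved to 0.56 (standard error 0.20, limma adjusted p = 0.67, range 0.11 to 1.0). Neither was called, and their unadjusted p-values in that limma fit were 0.026 and 0.049, with 842 of 11481 genes under 0.05.

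The other genes of the pathway were described from a list of 52 genes in 9 roles, of which 39 averaged 1 FPKM or more. Of these, 0 were called by limma between the labels and 1 had an unadjusted p under 0.05, *Dtx4*, which encodes a Deltex ubiquitin ligase (3.35, 8.53 and 5.30 FPKM in replicates 1 to 3 and 11.5 and 10.6 FPKM in replicates 4 and 5). The labels did not overlap for 11 of the 39 genes, with 9 above and 2 below under the knockout label, beside 23.3% of all tested genes (17.5% above and 5.77% below). The median difference was 0.14, beside 0.11 over all tested genes, of which 3.24% had an unadjusted p under 0.05. These genes were measured in the same libraries as the members and are not replicates of the labels.

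Other ligands were scarce. None of *Dll3*, *Dll4*, *Dlk1*, *Dlk2* and *Dner* reached a mean of 1 FPKM, the highest was *Dll4* with 0.251 FPKM, and *Dner* was listed at 0 in each library. The machinery for receptor processing was present at higher levels. Of 3 proteases that cut the receptor, *Furin* had the highest mean (41.9 FPKM), and *Adam10* had 57.9 FPKM in replicate 3 beside 19.8 to 23.8 FPKM in the other libraries, a gene singled out after its values were seen. Of the 7 gamma-secretase genes, 5 were tested, and *Psenen*, a small subunit of the complex, led with a mean of 90.2 FPKM. *Rfng*, a Fringe enzyme that adds sugar to the receptors, led the glycosyltransferases with 15.5 FPKM.

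In the role of ligand uptake *Epn1*, an endocytic adaptor, was highest at a mean of 34.9 FPKM, and in receptor turnover *Dtx3* at 24.2 FPKM. Among the nuclear partners, *Snw1* led the 6 coactivators (34.8 FPKM) and *Ctbp1* the 5 corepressors (57.0 FPKM). All 6 coactivators and all 5 corepressors had a higher mean under the knockout label, by a median of 0.30 and 0.16 in log2(FPKM + 1), and none of the 11 was called. The all-gene median of 0.11 lies in the same direction. Other roles went the other way, with a higher mean under the knockout label for 0 of 3 receptor proteases and 1 of 4 glycosyltransferases. Over the whole list it was higher for 26 of 39 tested genes, beside 65.5% of all tested genes. Under median-of-ratios scaling it was higher for 20 of the 39, with a median of 0.04. Without replicate 3 it was higher for 27 of the 39, with a median of 0.13.

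Among the 9 other genes known as Notch targets, 6 were tested. *Myc*, a growth regulator with many other inputs, had the highest mean, 113.9 FPKM, and its level in replicate 3 was 54.0 FPKM, below the 92.2 to 157.7 FPKM of the others. *Ccnd1*, which encodes cyclin D1, had 30.2 FPKM in replicate 3 beside 77.8 to 95.2 FPKM, and the luminal factor *Gata3* at 71.3 FPKM against 35.1 to 47.2 FPKM. The last pair was named after the values were seen. The HES and HEY relatives were low, with *Hes5* listed at 0 in 4 of 5 libraries, *Hes7* at a mean of 0.375 FPKM, *Hey2* at 0.199 FPKM and *Heyl* at 1.14 FPKM. Of the other tested targets, *Nrarp* was lowest in replicate 3 (1.78 FPKM against 2.27 to 4.61 FPKM). *Dtx1* was highest there (1.86 FPKM against 0.789 to 1.40 FPKM). Known targets thus did not move one way in replicate 3, where *Hey1*, *Hes1*, *Gata3* and *Dtx1* were highest and *Myc*, *Ccnd1* and *Nrarp* lowest. All 6 proliferation genes were also lowest there, and their part in the *Myc* and *Ccnd1* levels was not tested.

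**Figure D5:**
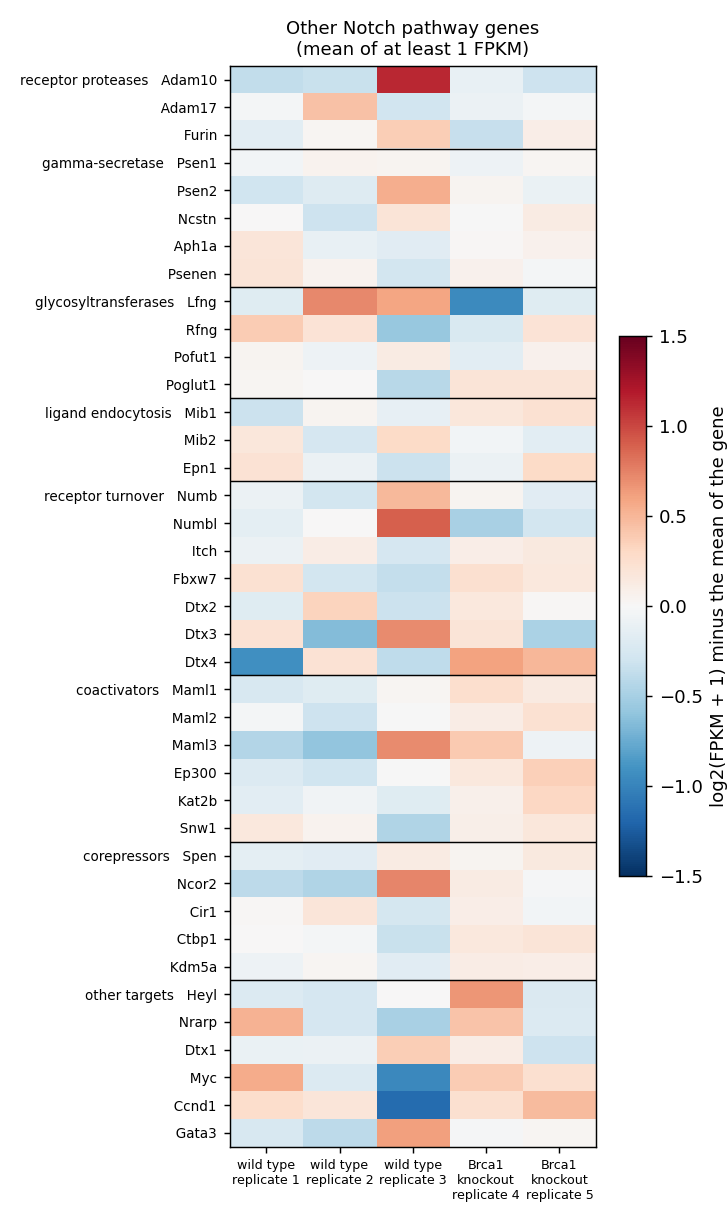
Level of the tested Notch pathway genes in each library, as the difference of log2(FPKM + 1) from the gene's own mean over 5 libraries (colour), grouped by role. Replicate 3 holds the strongest colours in both directions, with *Adam10* at 57.9 FPKM as a high gene and *Ccnd1* at 30.2 FPKM as a low one.

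The genes nearest in pattern were sought for the 3 tested members with the widest range over the libraries, among genes that averaged 1 FPKM or more, by the largest difference in any library after each gene's log2(FPKM + 1) was centred on its mean. For *Hey1* these were *Itgb3*, which encodes integrin beta 3 (largest difference 0.45), *Stc2*, a secreted glycoprotein (0.52), and *Fcgbp* (0.56). *Itgb3* was at 34.9 FPKM in replicate 3 and at 0.596 to 1.72 FPKM elsewhere, and *Fcgbp* at 1004 FPKM against 25.6 to 120.3 FPKM. For *Notch1* the nearest were *Irx3*, a homeobox factor (0.10), *9030025P20Rik* (0.14) and *Abca2* (0.15), and for *Hes1* they were *Fat1*, an atypical cadherin (0.10), *Hacd4* (0.12) and *Wwc2* (0.12). *Irx3* was at 77.9 FPKM in replicate 2 and 163.0 FPKM in replicate 5, the lowest and highest libraries for *Notch1* too. With 5 libraries and 11481 genes, close patterns are found for many genes.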

How the data were processed

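RNA of 5 sorted luminal samples was sequenced as bulk libraries. The authors deposited 1 table of FPKM values, with no counts. The submitters' processing notes name Trimmomatic 0.35, TopHat2 2.0.13 and Cufflinks 2.2.1 with mm10, and the annotation is not given in the sources used here. Cufflinks divides by transcript length and mapped fragments, and shares fragments among overlapping transcripts. In GENCODE M21, exons of *Notch1*, *Notch3* and *Dll1* overlap those of genes on the opposite strand and those of *Notch2* a gene on the same strand. Strand-specific counting is not stated, so reads of such partners cannot be told apart.

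Of 24346 rows, 27 with names turned into dates were left out. Values were analysed as log2(FPKM + 1), so a fold change understates the change of low genes. The labels were compared in limma 3.58.1 under R 4.3.3 by lmFit and trended eBayes, two-sided, for the 11481 genes that averaged 1 FPKM or more, with Benjamini-Hochberg adjustment and a threshold of 0.05. The fit was tested on simulated data. Other values are means ± SD. A rough depth was read from the steps between low values of 129 to 196 genes per library. Only 54.3% to 57.0% of those values lay within 0.15 of a whole multiple, so reads were not recovered, fragment numbers are approximate and no count model was run.

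Positions are from GENCODE M21, promoter windows from RefSeq (GRCm38.p6). Named are the 10 members, *Brca1*, the marker genes, the highest pathway gene of each role, any gene past the threshold, and the 3 genes nearest in pattern to each of the 3 members of widest range. Beyond that rule, the other ligands and other targets of the pathway list are named too. *Dtx4* was added for its unadjusted limma p under 0.05, and *Adam10* after its values were seen. Members and lists were chosen with earlier results of these data known. Alternatives were a pseudocount of 0.1, no filter or a mean of 5 FPKM, median-of-ratios and quantile scaling, no trend, array weights, each replicate left out and, for the member median, the mean in its place. Tables and plots were made with pandas 2.3.3, numpy 2.4.6 and matplotlib 3.10.9 in Python 3.11.15.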

Additional observations from a re-analysis of the deposited data

Results flagged for a closer look

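The *Hey1* level had replicate 3 far above the other libraries. On the log2(FPKM + 1) scale the gap to the nearest library was 0.7243 of the whole range over the 5 libraries, past the critical value of 0.71 (Dixon, 95%). The share of *Dll1* in the ligand sum had replicate 5 far below the others (6.35% against 14.5% to 16.0%), with a gap of 0.8409 of the range. Chance passes this limit in about 1 of 20 groups, and 2 of the 19 results checked passed it. Of the 11481 tested genes, 12.99% passed, and in 1212 of those 1491 genes replicate 3 was the library that stood apart.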

How the results depend on the processing

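Of the 11481 genes, 0 were called between labels as reported, 1 with array weights (*H2-Q8*), and 0 to 18 when a replicate was left out. There were 2 without replicate 1 (*Mir3082*, *Snord69*), 18 without replicate 4 (small RNA genes such as *Mir17*) and 4 without replicate 5 (*Mir207*, *Mir3102*, *Mir5121*, *Rnu73b*), none of them a member or pathway gene. Leaving out replicate 4 or 5 leaves 1 library under that label, which is then assumed to vary like the others. No member and no pathway gene was called under any alternative run. The *Notch2* difference became -0.077 under median-of-ratios scaling and -0.082 under quantile scaling. That of *Rbpj* became -0.10, -0.11 and, with array weights, -0.086, and that of *Hey1* 0.86 with array weights. These weights were 0.505, 5.59 and 0.148 for replicates 1 to 3, lowest in replicate 3, and 1.55 for each of replicates 4 and 5. Under the wild type label the weighted fit thus rested mostly on replicate 2, the lowest library for *Notch1* and *Notch3*. With these weights *Notch1* was at 0.85 and *Notch3* at 0.73, both with an adjusted p of 0.11 (limma), where the alternatives ranged from 0.11 to 1.0. With 1 replicate left out, the difference ran from 0.26 to 0.67 for *Notch1*, from 0.11 to 0.56 for *Notch3*, from -0.37 to -0.011 for *Jag1*, from -0.11 to 0.22 for *Notch2*, from -0.046 to 0.058 for *Rbpj*, from -0.11 to 0.42 for *Hes1* and from -1.56 to 1.02 for *Hey1*. The difference between labels in the median of log2(FPKM + 1) over the 10 members was -0.26 as reported and -0.53 to 0.10 with 1 replicate left out. It turned positive only without replicate 3. With the mean over the 10 members in place of the median it was -0.034. The pooled SD of the median within labels was 0.54, larger than each of these differences. The cause of these changes was not tested. No paired analysis was possible because the labels give no pairing or batch. Depth limits *Notch4*, *Jag2* and *Dll1*, and the lower *Hey1* values, most.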
